A study of Mus musculus with 66 samples.

Results

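The comparison concerns 6 RNA sequencing libraries, out of 66 in the series, all made from 2 ng of total RNA of the mouse bladder cancer cell line BC57 after formalin fixation and paraffin embedding (FFPE). The members were taken by their titles: 3 repeat libraries were built with the SMARTer Stranded Total RNA-Seq Pico kit, and 3 with the Ovation SoLo kit. Per the labels' protocols, 1 harvested BC57 pellet was split, 1 portion was frozen (FF) and the other was kept in buffered formalin for 24 hours before embedding in wax. The question addressed is how the choice of kit changes the genes read from fixed RNA at this input. Further groups used below are the same kits on the frozen portion of BC57 cells (3 libraries each) and on FFPE normal mouse urothelium (3 libraries each), both at 2 ng; the urothelium was taken from 9 mice whose age and strain the labels do not give. BC57 is 1 cell line, with no genetic change or drug treatment named in the labels. The labels do not place the repeat libraries in separate cultures, so that every p-value below measures spread between libraries, which may be technical. The labels give the libraries of each kit their own order number, and the kit and that order cannot be told apart.

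Both kits are meant for total RNA with little material, whether or not a transcript has a poly(A) tail, and both are strand specific per the labels' protocols. Ovation SoLo primes cDNA at random sites on the RNA and removes ribosomal sequences with its InDA-C step. SMARTer Pico relies on a reverse transcriptase that adds bases when it reaches the end of an RNA fragment and then switches template, and it also includes a step that depletes ribosomal sequence. Formalin fixation is known to break RNA into short pieces and to modify its bases. Total RNA contains, besides messenger RNA, the ribosomal RNAs, the RNAs encoded by mitochondria, and many short stable RNAs such as small nucleolar RNAs (snoRNAs), which guide chemical modification of ribosomal RNA.

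Total counts per library were 3869941, 4920588 and 2480848 with SMARTer and 3816455, 3462913 and 4072971 with Ovation. Levels are given as counts per 1000000 (CPM) scaled by the TMM method within the 6 libraries. Log2 fold changes are SMARTer over Ovation, so that a positive value means higher in SMARTer libraries. Calls rest on the edgeR quasi-likelihood test, with Benjamini-Hochberg adjustment over the whole table and a threshold of 0.05. The epithelial keratins Krt7, Krt8 and Krt18 were present in all 6 libraries, and of the plaque proteins of differentiated urothelium, Upk1b averaged 97.6 ± 8.54 CPM with SMARTer and 133 ± 14.5 CPM with Ovation (SD, n = 3 each), and Upk2 had 1.09 to 1.74 CPM with SMARTer and 0.685 to 2.93 CPM with Ovation.

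The third SMARTer library stood apart from the other 5, so that results that changed most when it was left out are given with and without it. At equal depth, 13300, 13347 and 19267 genes reached 5 counts in the SMARTer libraries, against 13732, 13695 and 13748 in the Ovation libraries. SMARTer libraries 1 and 2 thus lay slightly below all 3 Ovation libraries, and library 3 far above. Olfactory receptor genes, which are silent in most tissues outside the nose, had a count in 28, 25 and 529 of 1013 genes with SMARTer and in 37, 26 and 22 with Ovation. Genes made up of major satellite-like repeat took 0.00540%, 0.00825% and 1.29% of counts with SMARTer and 0.0111%, 0.0133% and 0.0143% with Ovation. These 2 lists were drawn up after library 3 was seen to differ. Its log2 CPM correlated at 0.887 and 0.889 with the other SMARTer libraries, which correlated at 0.973 with each other, while Ovation libraries correlated at 0.980 to 0.983 (Pearson's r across 16691 genes, which are not independent). The 12 fibroblast markers summed to 26, 26.7 and 102 CPM with SMARTer and 34.8, 32.1 and 30.3 CPM with Ovation, with 2, 2 and 0 markers at 0 and 2, 3 and 2 at 0. The 10 endothelial markers summed to 3.84, 5.79 and 50.3 CPM with SMARTer and 5.72, 1.92 and 1.40 CPM with Ovation, with 4, 6 and 1 and 6, 7 and 4 markers at 0. The 13 immune markers summed to 20.7, 15.6 and 64.3 CPM with SMARTer and 18.9, 19.5 and 15.4 CPM with Ovation, with 5, 9 and 1 and 8, 9 and 8 markers at 0. These markers were read in libraries of a cell line, and their sums are not taken as shares of cell types. The part of library 3 in each result was not tested beyond leaving it out. The third SMARTer library of the frozen pellet moved the same way, with counts in 214 olfactory receptor genes against 2 and 5 in the other SMARTer FF libraries.

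**Figure D1:**
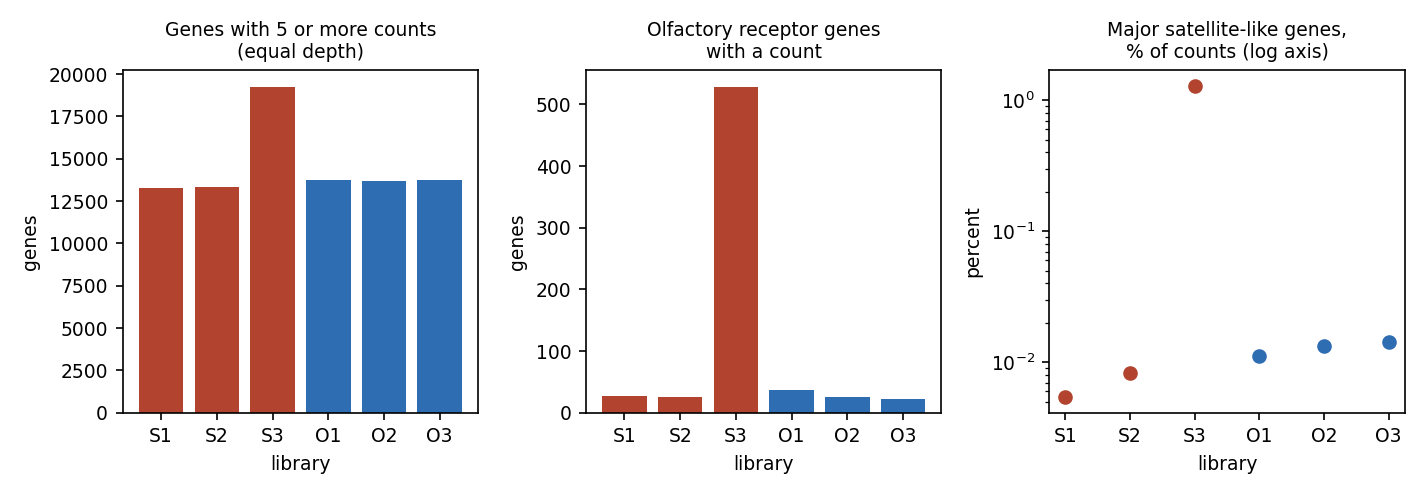
Measures of each BC57 FFPE library, with SMARTer libraries S1 to S3 (red) left of Ovation libraries O1 to O3 (blue): genes with 5 or more counts at equal depth, olfactory receptor genes with a count, and the percent of counts in major satellite-like genes on a log axis. Library S3 is at 19267 genes, 529 receptor genes and 1.29%, apart from the other 5 in every panel.

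The short RNAs at the centre of the kit difference are shown here, read from GENCODE transcripts on GRCm38 and written 5′ to 3′. A large share of SMARTer counts fell on a 57-base sequence annotated as a miRNA under 3 gene names, Gm23935 (chr16:11144125-11144181, plus strand), Gm24270 (chr9:56223715-56223771, minus strand) and Gm24245 (chr4:139338304-139338360, plus strand). It has a GC content of 73.7%, and its letters are the same in all 3 genes.
Gm23935: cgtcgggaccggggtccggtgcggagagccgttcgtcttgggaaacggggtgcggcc
Among snoRNAs and Y RNAs, the 3 with the largest fold change in each direction are shown, of those at 20 CPM or more. In C/D snoRNAs, capitals mark a C box (TGATGA) and a D box (CTGA), and in H/ACA snoRNAs the ACA that lies 3 bases from the 3′ end. On the RNA strand, TGATGA was present in 75.3% of the 97 C/D snoRNAs annotated, CTGA in the last 20 bases in 97.9%, and ACA at that position in 82.9% of 41 H/ACA snoRNAs.
Snord82 (C/D, chr1:86356261-86356330, minus strand): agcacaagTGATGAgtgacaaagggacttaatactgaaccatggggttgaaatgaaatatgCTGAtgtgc
Snord22 (C/D, chr19:8725866-8725991, plus strand): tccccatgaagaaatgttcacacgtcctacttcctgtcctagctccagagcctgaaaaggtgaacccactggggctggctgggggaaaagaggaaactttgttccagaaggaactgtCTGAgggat
Snora21 (H/ACA, chr11:97781639-97781775, minus strand): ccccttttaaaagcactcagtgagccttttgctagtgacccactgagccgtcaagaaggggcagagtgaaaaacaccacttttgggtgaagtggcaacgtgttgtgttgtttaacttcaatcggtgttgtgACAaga
Snord14e (C/D, chr9:40804748-40804837, plus strand): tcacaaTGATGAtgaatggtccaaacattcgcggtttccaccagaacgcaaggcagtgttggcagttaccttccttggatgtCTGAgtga
Snora9 (H/ACA, chr11:6528033-6528165, minus strand): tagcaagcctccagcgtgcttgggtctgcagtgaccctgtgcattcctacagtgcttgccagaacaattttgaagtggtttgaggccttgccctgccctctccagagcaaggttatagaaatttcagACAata
Rny1 (Y RNA, chr6:47788069-47788180, minus strand): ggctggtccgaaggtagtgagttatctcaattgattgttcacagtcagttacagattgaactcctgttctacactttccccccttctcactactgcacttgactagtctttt

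Kit choice changed a large part of the transcriptome read from fixed BC57 RNA. Of 13030 genes tested, 4476 were called, which is 34.4% of those tested, with 2252 (17.3%) higher and 2224 (17.1%) lower in SMARTer libraries. Of these, 1410 (10.8%) differed at least 2-fold. Without SMARTer library 3, 4984 of 13380 genes were called (37.2%), 2488 (18.6%) higher and 2496 (18.7%) lower. Both fits called 4147 genes, and 4145 of them in the same direction. With scaling by library size alone, the median log2 fold change of all genes moved to -0.16, against 0.06 with TMM, and the calls became 1314 higher and 3508 lower. With no filter on low counts they were 1738 higher and 3063 lower, and with limma on the log2 values deposited by the authors 1393 higher and 654 lower. Directions below are those after TMM scaling.

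The sharpest contrast was in RNA classes that are not ordinary messenger RNA. A list of genes that overlap or resemble ribosomal and other repeats took 19%, 15.3% and 19.6% of counts with SMARTer and 6.03%, 5.77% and 6.32% with Ovation. Mitochondrial ribosomal RNAs took 9.23%, 10.7% and 7.42% with SMARTer and 5.03%, 5.06% and 4.93% with Ovation, whereas the 13 mRNAs that mitochondria encode took 1.69%, 2.05% and 2.33% with SMARTer and 7.03%, 7.5% and 6.75% with Ovation. The repeat-like list and the mitochondrial ribosomal RNAs were thus higher in every SMARTer library, and the mitochondrial mRNAs lower. Replication-dependent histone mRNAs, which end in a stem-loop in place of a poly(A) tail, took 0.318%, 0.285% and 0.263% with SMARTer and 0.609%, 0.556% and 0.496% with Ovation. Cajal body RNAs, which guide modification of spliceosomal RNAs, took 0.0196%, 0.0194% and 0.0218% with SMARTer and 0.0658%, 0.0674% and 0.0575% with Ovation. Protein-coding genes together took 64.0%, 67.0% and 65.1% of counts with SMARTer and 80.3%, 80.6% and 80.7% with Ovation. In all of these classes the groups did not overlap, and the two-sided exact permutation test gave p = 0.10, the smallest value that 3 against 3 libraries can give (0.285 adjusted over the library measures).

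**Figure D2:**
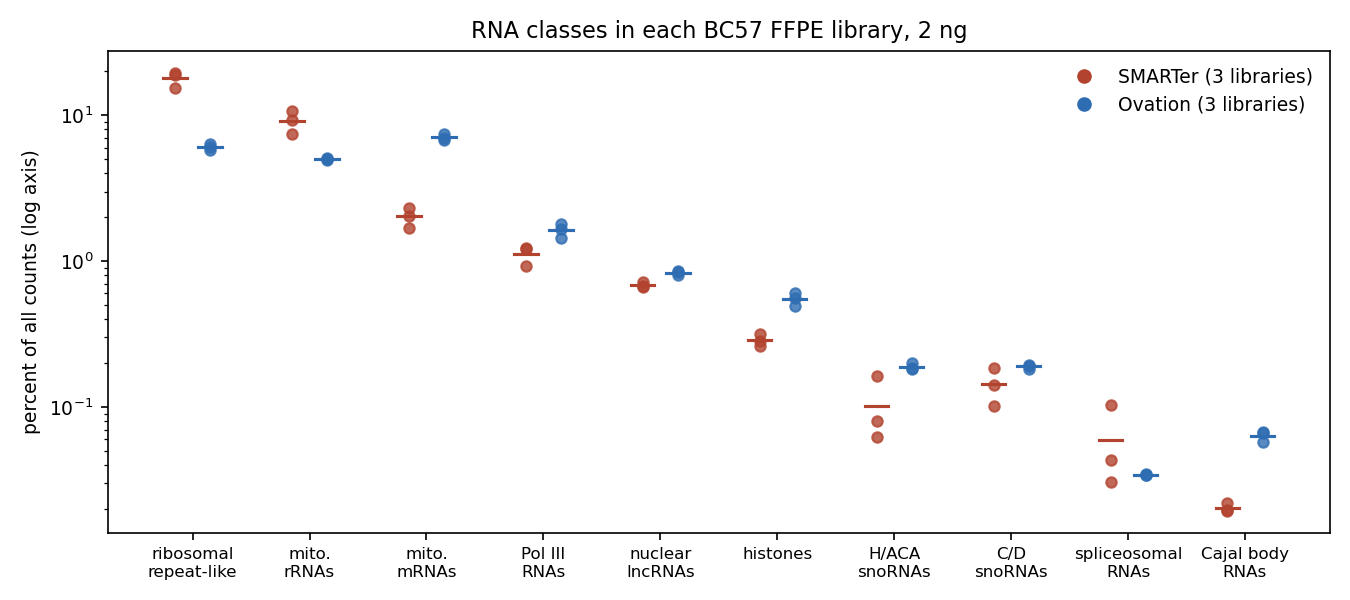
Percent of all counts (log axis) taken by RNA classes in each BC57 FFPE library, SMARTer (red) left of Ovation (blue); points are libraries and bars are means of 3. Ribosomal-repeat-like genes and mitochondrial rRNAs sit higher with SMARTer, and mitochondrial mRNAs, histones and Cajal body RNAs sit lower, with no overlap between kits.

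Gm23935 had 105324, 89941 and 119952 CPM in SMARTer libraries, against 3320, 3274 and 3829 CPM in Ovation libraries. All 3 SMARTer libraries lay far above all 3 Ovation libraries, with a difference of 4.92 ± 0.13 (SE) on the log2 scale (edgeR, adjusted p = 5.25e-13). Gm24270, with the same 57 bases, had 4498, 4584 and 4986 CPM with SMARTer and 56.1, 62.6 and 76.7 CPM with Ovation, a log2 fold change of 6.17. Gm24245 averaged 151 CPM with SMARTer and 3.81 CPM with Ovation. These 57 bases alone do not place a read on 1 of the 3 genes. How reads that match several places were counted is not given in the sources used here, so that the split is uncertain. Gm42418, a gene that overlaps a ribosomal repeat, was higher too, with 87450, 58077 and 63956 CPM with SMARTer and 36794, 34943 and 38574 CPM with Ovation (log2 fold change 0.93). In contrast, Gm15564 of the same list was lower, with 405, 234 and 197 CPM with SMARTer and 555, 539 and 688 CPM with Ovation (log2 fold change -1.09). Of 7 ribosomal-repeat-like genes tested, 5 were higher and 1 lower (background 17.3% and 17.1%). Without SMARTer library 3 the counts were 3 and 2 (background 18.6% and 18.7%). The median of the list was 1.05 and, without library 3, 0.16, or -0.08 with scaling by library size alone. The list also holds Gm10800 and Gm10801, which are built of major satellite-like repeat. Gm10800 had 39.1, 61.7 and 10539 CPM with SMARTer and 58.3, 74.0 and 72.3 CPM with Ovation. Its log2 fold change was 5.70 over all 6 libraries and -0.41 without library 3, and that of Gm10801 was 4.94 and -0.50. Over all 6 libraries neither was called with limma on the deposited log2 values.

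Mitochondrial genes divided by type. Both ribosomal RNAs were higher with SMARTer, while 12 of 13 mRNAs were lower and none higher (background 17.1% lower). mt-Rnr1, the small ribosomal RNA, had 40850, 46398 and 32878 CPM with SMARTer and 13714, 13883 and 13187 CPM with Ovation, a log2 fold change of 1.56 ± 0.11 (SE, edgeR adjusted p = 1.21e-07). mt-Rnr2, the large one, had 62646, 68749 and 48372 CPM with SMARTer and 33121, 33432 and 32639 CPM with Ovation, with a log2 fold change of 0.86. mt-Nd3, a subunit of respiratory complex I, had 72.7, 84.0 and 92.2 CPM with SMARTer and 1124, 1232 and 1068 CPM with Ovation. Its log2 fold change of -3.79 ± 0.12 (SE, edgeR adjusted p = 8.83e-12) was the most negative of the 13 mitochondrial mRNAs. mt-Nd1, from the same complex, had 3490, 4068 and 3657 CPM with SMARTer and 14861, 16034 and 14002 CPM with Ovation. mt-Atp8, a short ATP synthase mRNA that overlaps mt-Atp6, had 13.3, 11.8 and 11.5 CPM with SMARTer and 94.9, 94.5 and 68.9 CPM with Ovation. Within the mRNAs the size of the difference was uneven, since mt-Co2 and mt-Co3, subunits of cytochrome oxidase, had log2 fold changes of -0.61 and -0.40, and mt-Co3 passed the test only without library 3 (edgeR adjusted p = 0.102 with it and 0.0228 without it).

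Mitochondrial tRNAs depended on library 3. Over all 6 libraries, 4 of 20 were higher and 9 lower (background 17.3% and 17.1%). Without library 3 the counts were 3 and 14 (background 18.6% and 18.7%). The medians were -0.46 and, without library 3, -1.15 on the log2 scale. mt-Ty, the tyrosine tRNA, had 141, 142 and 464 CPM with SMARTer and 1244, 1421 and 1212 CPM with Ovation, and its log2 fold change was -2.39 with library 3 and -3.19 without it. mt-Ta, the alanine tRNA, had 21.2, 17.3 and 121 CPM with SMARTer and 271, 234 and 224 CPM with Ovation, with log2 fold changes of -2.31 and, without library 3, -3.67. The third SMARTer library was the highest of its group for both tRNAs and stayed below every Ovation library. mt-Ts1, a serine tRNA, and mt-Td, the aspartate tRNA, went the other way, with log2 fold changes of 1.57 and 2.20.

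Short nuclear RNAs had calls in both directions, in proportions that differed by class. Over all genes tested, 17.3% were higher and 17.1% lower, or 18.6% and 18.7% without library 3. Among Cajal body RNAs, 6 of 8 tested were lower and none higher, and Scarna9 had 2.03, 4.81 and 1.76 CPM with SMARTer and 21.5, 27.8 and 29 CPM with Ovation (log2 fold change -3.05). Terc, the RNA template of telomerase, was among the 6, with a log2 fold change of -2.24. Its levels were low, at 0.290, 2.19 and 3.97 CPM with SMARTer and 12.4, 8.10 and 8.21 CPM with Ovation. Among C/D snoRNAs, which guide ribose methylation, 19 of 48 tested were lower and 6 higher, and the median was -0.82. Without library 3, 27 of 55 were lower and 6 higher, with a median of -1.08. Among H/ACA snoRNAs, which guide pseudouridylation, 9 of 33 were higher and 9 lower and the median was 0.29, but without library 3 the counts were 6 and 12 of 36 and the median -0.48. The sign of the H/ACA median therefore rested on that library. The share of counts of the 41 H/ACA snoRNAs was lower in every SMARTer library. It was 0.0797%, 0.0621% and 0.163% with SMARTer and 0.199%, 0.181% and 0.184% with Ovation. By annotated class, 68 of 187 snoRNA genes were lower and 24 higher, and 21 of 39 small nuclear RNA genes were lower and 5 higher. Without library 3, 101 of 206 snoRNA genes were lower and 21 higher, and 27 of 45 small nuclear RNA genes were lower and 5 higher. Reads from closely related snoRNA and small nuclear RNA copies may be split among them.

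**Figure D3:**
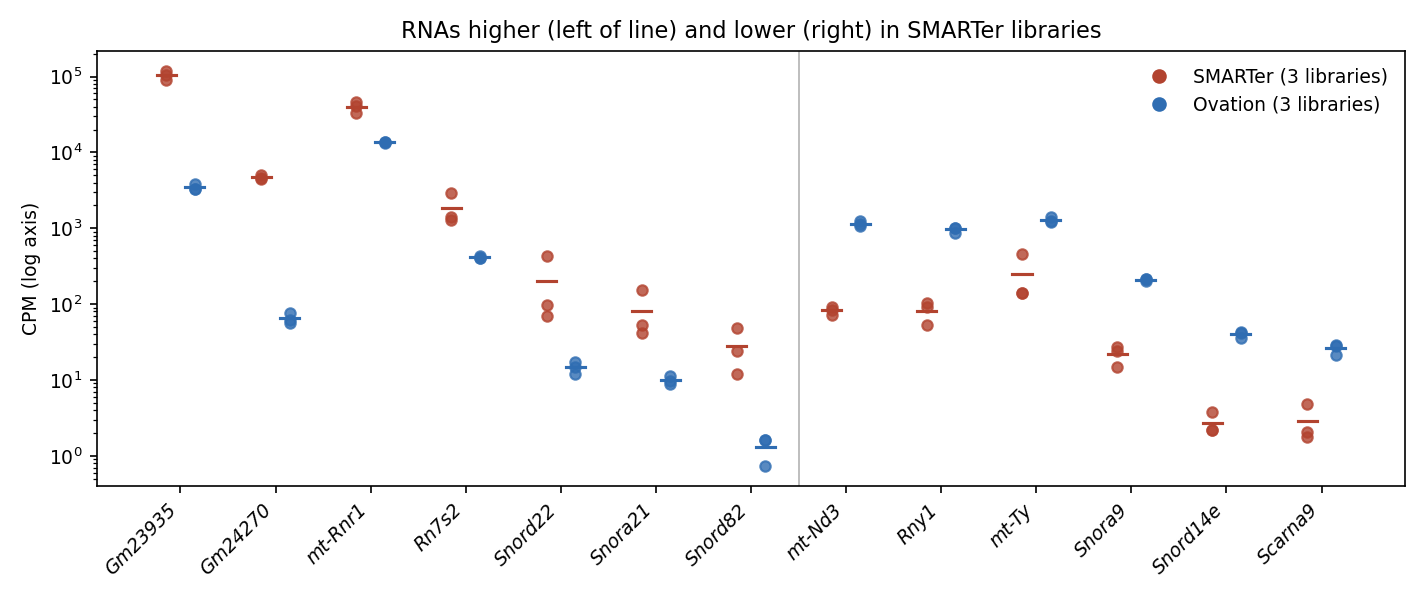
CPM (log axis) of 13 RNAs in each BC57 FFPE library, SMARTer (red) left of Ovation (blue), with bars for the mean of 3 libraries. RNAs left of the line, from Gm23935 to Snord82, are higher in SMARTer libraries, and those right of it, from mt-Nd3 to Scarna9, are lower, with no overlap between kits for any of them.

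Snord14e, whose C and D boxes are shown above, had 3.77, 2.19 and 2.21 CPM with SMARTer and 42.7, 42.1 and 35.4 CPM with Ovation, a log2 fold change of -3.86 ± 0.26 (SE, edgeR adjusted p = 4.35e-08). Snora9 had 27.5, 24.1 and 14.6 CPM with SMARTer and 212, 200 and 216 CPM with Ovation, a log2 fold change of -3.20. The groups did not overlap for either RNA. Snora73b, which guides pre-ribosomal RNA processing, had 70.4, 52.1 and 77.2 CPM with SMARTer and 402, 342 and 343 CPM with Ovation. Snord82 went the other way, with 47.8, 23.8 and 11.9 CPM with SMARTer and 0.732, 1.62 and 1.60 CPM with Ovation, a log2 fold change of 4.40 ± 0.51 (SE, edgeR adjusted p = 1.08e-05). Snora21 had 52.7, 42.2 and 152 CPM with SMARTer and 11.2, 8.91 and 9.58 CPM with Ovation, a log2 fold change of 3.0, or 2.25 without library 3. Snord22 had 97.1, 70.4 and 429 CPM with SMARTer and 14.9, 11.9 and 17.1 CPM with Ovation, a log2 fold change of 3.72, or 2.50 without library 3. The SMARTer libraries spread more than the Ovation libraries for all 3 of these RNAs.

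Many snoRNAs are cut out of the introns of a host gene, and the snoRNA and its host did not always move together. Of 69 C/D and H/ACA snoRNAs tested with a tested gene around them on the same strand, 21 were lower, and the host was higher for 10 of these, lower for 3 and not called for 8. Without library 3, 27 were lower, with the host higher for 12, lower for 5 and not called for 10. Of the 69, 13 were higher, with the host higher for 4, lower for 3 and not called for 6. Without library 3, 10 were higher, with the host higher for 6, lower for 2 and not called for 2. A host of several snoRNAs was counted once for each. Over all genes tested, 17.3% were higher and 17.1% lower, and these counts are not read as a lean of the hosts. Hspa8, a heat shock cognate chaperone gene, was higher with SMARTer by 0.59 on the log2 scale, while its snoRNAs Snord14c, Snord14d and Snord14e were lower by log2 fold changes of -2.07, -1.84 and -3.86. Rpl13a, a ribosomal protein gene, was higher by 0.77, while Snord32a, Snord34 and Snord35a in it had log2 fold changes of -2.76, -1.71 and -0.96. Snord82 and its host Ncl, which encodes the nucleolar protein nucleolin, were both higher, by 4.40 and 1.40. Snora9 and Snhg15, a host without a protein product that shares an exon with it, were both lower, by log2 fold changes of -3.20 and -2.40. How the authors' counting assigned reads where a snoRNA overlaps an annotated exon of its host is not given in the sources used here.

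RNAs made by polymerase III were split by gene: 2 of 8 were higher and 4 lower (background 17.3% and 17.1%). Without library 3 the counts were 2 and 5 (background 18.6% and 18.7%), and the median moved from -0.34 to -0.89. Vaultrc5 had a log2 fold change of 0.17 with library 3 and -1.57 without it. As a share of counts the list took 1.21%, 0.932% and 1.23% with SMARTer and 1.81%, 1.67% and 1.43% with Ovation. Rny1 and Rny3, the Y RNAs that bind the Ro protein, had the most negative fold changes of the 8. Rny1 had 91.6, 52.3 and 103 CPM with SMARTer and 999, 1022 and 876 CPM with Ovation, a log2 fold change of -3.57 ± 0.19 (SE, edgeR adjusted p = 5.13e-09). Rny3 had 143, 68.2 and 250 CPM with SMARTer and 575, 606 and 566 CPM with Ovation. Rn7sk, which holds the elongation factor P-TEFb inactive, had 3560, 3372 and 3573 CPM with SMARTer and 6942, 6485 and 5550 CPM with Ovation (log2 fold change -0.85). Rn7s2, a signal recognition particle RNA, was higher, with 2902, 1410 and 1303 CPM with SMARTer and 429, 405 and 408 CPM with Ovation (log2 fold change 2.18), whereas its near-identical partner Rn7s1 had a log2 fold change of 0.19 that did not pass (edgeR adjusted p = 0.577). Both RNase subunit RNAs differed as well: Rpph1, of RNase P, was higher by 0.75, and Rmrp, of RNase MRP, had a log2 fold change of -0.84. With limma on the deposited log2 values, Rmrp was not called over all 6 libraries but was called without library 3. A list of small nuclear RNAs of the Rnu family had 2 of 9 members higher and 3 lower. Without library 3 the counts were 2 and 7 of 11 (background 18.6% and 18.7%). Of those called, Rnu3a, Rnu3b2 and Rnu3b3 are genes of U3, a snoRNA of ribosomal RNA processing and not part of the spliceosome. Their log2 fold changes were 1.36, -2.67 and -3.92, and without library 3 0.73, -2.57 and -3.82. Rnu3b2 averaged 0.583 CPM with SMARTer and 3.93 CPM with Ovation, and Rnu3b3 0.535 and 9.13 CPM. The fold changes of Rnu3b2 and Rnu3b3 thus rest on few counts. Rnu11, of the minor spliceosome, was higher by 1.97, or by 1.15 without library 3. Rnu5g was lower with a log2 fold change of -1.55, or -2.39 without library 3, and over all 6 libraries its call was lost with DESeq2 (adjusted p = 0.0892).

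Of 58 replication-dependent histone genes tested, 32 were lower and 5 higher with SMARTer (background 17.1% and 17.3%), and the median was -0.76. Hist1h3c had 49, 41.6 and 42.8 CPM with SMARTer and 248, 259 and 217 CPM with Ovation, a log2 fold change of -2.44 ± 0.12 (SE, edgeR adjusted p = 2.72e-09). Histone genes of 1 family resemble each other closely, so that the reads of single copies are uncertain. Nuclear long noncoding RNAs also leaned lower, with 5 of 9 lower and 1 higher against the same background. Xist had 251, 289 and 230 CPM with SMARTer and 776, 870 and 830 CPM with Ovation (log2 fold change -1.68). Neat1, the scaffold of paraspeckles, had a log2 fold change of -0.49, while Malat1, found in nuclear speckles, was higher by 0.37. The Malat1 call was lost with library size alone (log2 fold change 0.15, edgeR adjusted p = 0.169), with no filter, and without SMARTer library 1 or 2. With limma on the deposited log2 values, the calls of Neat1 and Malat1 were lost over all 6 libraries but held without library 3.

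Among protein-coding genes the 2 directions balanced, with 1960 of 11243 higher (17.4%) and 1918 lower (17.1%), and the direction followed base composition. The GC content of the longest annotated transcript was known for 12850 of the 13030 genes. When these were divided into 10 bins of 1285 genes, the median log2 fold change was -0.39 in the bin of lowest GC (17.1% to 41.1%) and 0.36 in the bin of highest GC (57.8% to 83.1%), and it did not fall from any bin to the next. In the lowest bin, 7.24% of genes were higher and 38.8% lower, and in the highest bin, 28.8% were higher and 7% lower. Across genes, Spearman's rho between GC content and log2 fold change was 0.348 (0.330 without library 3), given as a description, since all genes share the same 6 libraries. In the shortest, middle and longest transcripts it was 0.226, 0.359 and 0.493. Transcript length by itself gave a rho of -0.014. The part of base composition in the result was not tested.

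**Figure D4:**
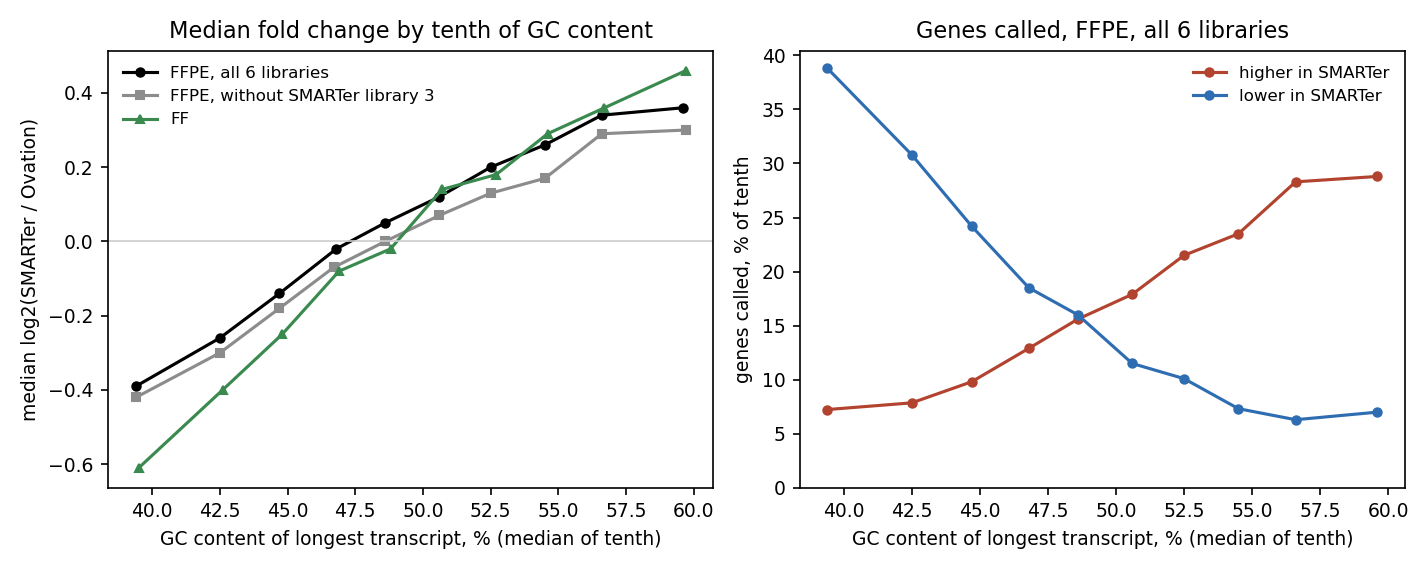
Left, median log2 fold change of SMARTer over Ovation against the median GC content of 10 equal bins of genes, for FFPE with all 6 libraries (black), FFPE without SMARTer library 3 (grey) and FF (green). Right, percent of each bin called higher (red) or lower (blue) with SMARTer in FFPE: lower calls go down from 38.8% to 7% as GC content increases, and higher calls go up from 7.24% to 28.8%.

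Commonly used marker and reference mRNAs differed too. B2m, the light chain of MHC class I, had 250, 268 and 222 CPM with SMARTer and 726, 749 and 663 CPM with Ovation (log2 fold change -1.53). Hmga2, a chromatin protein, averaged 247 ± 30.3 CPM with SMARTer and 545 ± 13.6 CPM with Ovation (SD, n = 3 each), with no overlap and a log2 fold change of -1.14. Krt8, an epithelial keratin, had 1278, 1129 and 1020 CPM with SMARTer and 595, 561 and 596 CPM with Ovation, a log2 fold change of 0.97. Krt7 and Krt18 were also higher, by 0.72 and 0.74, and Krt20, a marker of umbrella cells, by 1.06. Of 12 urothelial differentiation genes tested, Krt20 alone was called higher and 3 were lower (background 17.3% and 17.1%). Msln, encoding mesothelin, had 350, 348 and 325 CPM with SMARTer and 314, 280 and 298 CPM with Ovation, and did not pass (edgeR adjusted p = 0.125, and 0.0213 without library 3). Among 13 housekeeping genes 7 were lower and 2 higher (background 17.1% and 17.3%). Log2 fold changes were -0.68 for Actb, which encodes β-actin, and -0.49 for Gapdh of glycolysis. Neither of these was called with limma on the deposited log2 values over all 6 libraries, but both were called without library 3.

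Of the genes named for the size of their difference, several protein-coding ones were higher with SMARTer. Fam221b had 24.1, 39.8 and 35.3 CPM with SMARTer and 2.20, 1.89 and 2.51 CPM with Ovation, a log2 fold change of 3.88. Dok4, a docking protein downstream of tyrosine kinases, had 22.9, 26.7 and 24.3 CPM with SMARTer and 4.39, 5.13 and 4.56 CPM with Ovation. Gpatch4 had 56.8, 65.2 and 49.9 CPM with SMARTer and 14.9, 11.1 and 9.58 CPM with Ovation. No library of one kit reached the other for these 3 genes. Exons of Fam221b and Dok4 overlap genes on the opposite strand, and the use of strand in counting is not given in the sources used here, so that reads of the partners cannot be told apart. Mir692-2, which lies within the pseudogene Ftl2-ps, had 16.5, 33 and 53.8 CPM with SMARTer and 0 counts in all 3 Ovation libraries, at least 130-fold higher when 3 counts are taken as the floor of the Ovation group. Processed pseudogenes, which are copies of mRNAs, were higher more often than lower, with a median of 0.46. Of 339, 96 (28.3%) were higher and 21 (6.19%) lower, against 17.3% and 17.1% over all genes tested. Rpl37rt, a copy of a ribosomal protein mRNA, had 132, 185 and 176 CPM with SMARTer and 38.3, 32.4 and 30.6 CPM with Ovation. Reads of such copies are hard to separate from those of the parent gene.

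Lists of common cell functions had calls in both directions. The medians of the ribosomal protein, cell cycle, proteasome, oxidative phosphorylation, heat shock, glycolysis and splicing factor lists lay between 0.02 and 0.21 with TMM, and between -0.20 and -0.01 with scaling by library size alone, so that their sign depended on the scaling. Of 86 cytosolic ribosomal protein genes, 31 were higher and 25 lower (background 17.3% and 17.1%). Rplp2, of the ribosomal stalk, had 713, 666 and 633 CPM with SMARTer and 201, 180 and 147 CPM with Ovation (log2 fold change 1.93), while Rpl22l1 had 25.5, 25.2 and 22.9 CPM with SMARTer and 68.6, 76.7 and 66.2 CPM with Ovation (log2 fold change -1.51). Each count below stands against 17.3% higher and 17.1% lower over all genes tested, and none is called particular to its list. Of 31 cell cycle genes, 8 were higher and 9 lower. Cenpf and Cenpe, both proteins of the kinetochore, were higher by 1.14 and 0.98, and the spindle checkpoint gene Mad2l1 was lower with a log2 fold change of -1.16. Of 34 proteasome genes, 12 were higher and 7 lower, and the ubiquitin receptor Psmd4 had 164, 164 and 166 CPM with SMARTer and 57.3, 51 and 50.9 CPM with Ovation (log2 fold change 1.63). Among the 79 nuclear-encoded members of the respiratory chain, 19 gave higher and 18 gave lower values, and Cox5a of cytochrome oxidase had a log2 fold change of -1.25. Of 16 heat shock and immediate early genes, 4 were higher and 4 lower, among them the chaperone Hsp90aa1 at 1.13 and Fos at -0.99. Of 15 glycolysis genes 5 were higher, led by phosphofructokinase Pfkl at 1.29, and 2 lower.
Of 20 cholesterol synthesis genes 6 were higher and 7 lower, among them Mvk, mevalonate kinase, at 1.33. Of 32 SR and hnRNP splicing factor genes 8 were higher and 9 lower, among them Hnrnpm at 0.94 and Srsf2 at -1.41. One list leaned to 1 side: of 19 very long genes of the nucleus and cytoskeleton, 13 were higher and 1 lower and the median was 0.49 (0.27 with scaling by library size alone). Kmt2d, a histone methyltransferase, had 263, 239 and 245 CPM with SMARTer and 137, 131 and 129 CPM with Ovation, and Syne2, a nuclear envelope spectrin, had 289, 301 and 305 CPM with SMARTer and 155, 162 and 168 CPM with Ovation.

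The same kits were also used on frozen RNA of the BC57 pellet at 2 ng, which shares no library with the fixed comparison. On FF RNA, 6368 of 12044 genes were called (52.9%). Of genes called on FFPE RNA, 3757 were called in the same direction on FF RNA and 14 in the opposite one. The 3757 made up 83.9% of FFPE calls and 59% of FF calls, with the third SMARTer library in both fits. Without the third SMARTer FFPE library, 3946 genes had the same direction and 21 the opposite one. The 3946 made up 79.2% of FFPE calls and 62.0% of FF calls. GC content followed the same order on FF RNA, with medians from -0.61 to 0.46 across the 10 bins. In normal mouse urothelium kept as FFPE, where the third SMARTer library was again left out, 4124 of 14786 genes were called (27.9%), and 2458 genes had the same direction as in BC57 and 8 the opposite one, the 2458 making up 54.9% of BC57 calls and 59.6% of urothelium calls. With that library in, 163 of 14466 urothelium genes were called (1.13%).

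Whether the kit difference itself changed with preservation was tested as an interaction over 12 BC57 libraries. It was called for 96 of 13556 genes (0.708%), and without the third SMARTer FFPE library for 246 of 13876 (1.77%). Of 94 called genes tested on both RNAs, 72 had a smaller fold change on FFPE than on FF RNA, and 32 differed in sign. Only 8 of these 32 had a kit difference called on both RNAs. Gm23935 was among the 96, at log2 fold changes of 4.92 on FFPE and 6.44 on FF RNA (interaction -1.60, edgeR adjusted p = 2.13e-06). mt-Rnr1 and mt-Rnr2 were too, with interactions of -1.32 and -1.14. mt-Nd3 differed by -3.79 on FFPE and -4.97 on FF RNA, and Rn7sk by -0.85 and -2.07. Both remained lower with SMARTer on either RNA. Cox16, an assembly factor of cytochrome oxidase, was lower with SMARTer on FFPE RNA at -1.13, where it had 18, 18.6 and 18.1 CPM with SMARTer and 40.5, 40.5 and 38.8 CPM with Ovation. On FF RNA its log2 fold change was 0.17.

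**Figure D5:**
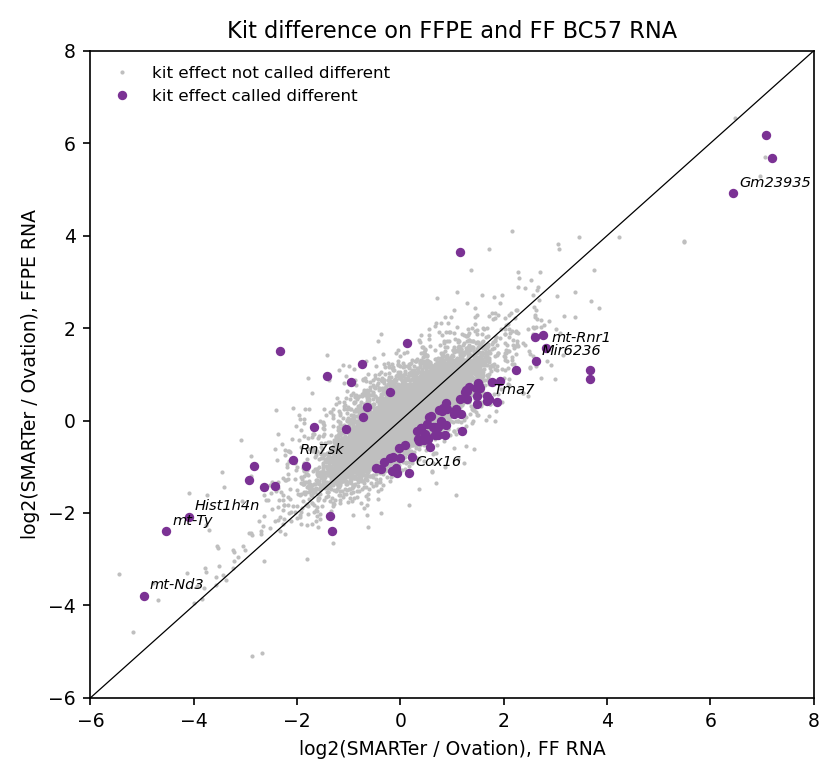
Log2 fold change of SMARTer over Ovation on FFPE RNA (vertical) against FF RNA (horizontal) for 11903 genes of BC57 cells at 2 ng, of which 5 lie outside the axes; the line marks equal change. The 94 genes whose kit difference was called different between FFPE and FF RNA are purple, and 72 of them have the smaller fold change on FFPE.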

How the data were processed

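RNA of BC57 cells and of normal mouse urothelium was sequenced as paired reads of 100 nucleotides, per the labels' protocols. Raw counts per gene were deposited by the authors, and the submitters' processing notes name STAR, SAMtools and featureCounts with mm10; the sources used here give neither versions nor the strand setting. The log2 values deposited by the authors equalled log2 of the count scaled to the upper quartile of its library, plus 1, to within 5.33e-14, and served as an alternative. Genes were joined by Ensembl identifier, and 37693 of 39179 matched GENCODE M21 (GRCm38), from which GC content, length and sequences were read.

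The counts were filtered by expression, scaled by TMM and tested with edgeR 4.0.16 in R 4.3.3 (quasi-likelihood, Benjamini-Hochberg over all genes tested). Library shares were compared by a two-sided exact permutation test, and Spearman's rho was computed with SciPy 1.17.1. The procedure was tested on simulated data. Alternatives used limma 3.58.1, DESeq2 1.42.0, other scalings and filters, thinned counts, the replicate block and libraries left out.

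Members and gene lists were chosen with earlier results of these data known. Named genes were the 10 per direction with the largest change among called genes with no overlap between kits and at least 20 CPM in the higher kit, up to 4 per list by size of change, the 5 per direction with the largest interaction, and a fixed set of markers. Clone-like symbols, list members below those ranks and snoRNA hosts named in the text were chosen after their values were seen. No intervals from counting error are given, and the spread between libraries sets the precision. Some results are not reported here.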

Additional observations from a re-analysis of the deposited data

Results flagged for a closer look

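The kit difference on FFPE RNA departed from that on FF RNA, by the test of the interaction over 12 BC57 libraries (edgeR quasi-likelihood test, Benjamini-Hochberg over 13556 genes), for 10 genes named by the size of that departure. Positive departures mean a higher value of SMARTer over Ovation on FFPE than on FF RNA. mt-Ty had a departure of 2.03 (log2 fold change -2.39 on FFPE and -4.53 on FF RNA, adjusted p = 0.00587), which was 1.29 without the third SMARTer FFPE library. Hist1h4n, a replication-dependent histone gene, had a departure of 1.95, with log2 fold changes of -2.08 and -4.10. AY074887, which overlaps Psma4 on the other strand, had 1.46, Rn7sk had 1.14 and mt-Nd3 had 1.10. Negative departures were -1.42 for Mir6236 (log2 fold change 1.28 on FFPE and 2.62 on FF RNA), -1.37 for Cox16, -1.32 for mt-Rnr1, -1.32 for Tma7, which overlaps Ccdc51 on the other strand, and -1.27 for Trir. Trir had 63.8, 40.9 and 47.6 CPM with SMARTer and 66.1, 60.2 and 63 CPM with Ovation on FFPE RNA, and 105, 79.9 and 94 CPM with SMARTer and 53, 39.8 and 53.6 CPM with Ovation on FF RNA.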

How the results depend on the processing

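In BC57 FFPE RNA the count of called genes, 4476, was between 3234 and 4984 when single libraries were left out, 4413 with RLE scaling, 4008 with DESeq2 and 4100 after thinning to equal depth. It was 2047 (1393 higher, 654 lower) with limma on the deposited log2 values, against 4978 when library 3 was left out as well. Library size alone gave 1314 higher and 3508 lower, and without library 3 1462 and 4051. Requiring 50 counts in 3 libraries left 914 genes called at least 2-fold, against 1410, and 829 without library 3. Gm10800 and Gm10801 ranged up to 6.19 and 5.44 when other libraries were left out and were -0.41 and -0.50 without SMARTer library 3. The replicate block gave 1.43 for Gm10800 (edgeR adjusted p = 0.292), and limma on the deposited log2 values gave 2.29 and 2.01 (adjusted p = 0.234 and 0.264). Msln was -0.01 without library 3 under library size alone.

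The interaction was called for 175 genes with DESeq2 (54 higher, 121 lower, 25 at least 2-fold), against 96. With single libraries left out it was called for 37 to 246 genes (7 to 82 higher, 29 to 164 lower, 26 to 93 at least 2-fold): leaving out any 1 Ovation library or SMARTer FF library 2 or 3 gave 37 to 58, and leaving out SMARTer FFPE library 3 gave 246. Without that library, DESeq2 gave 145 higher and 26 at least 2-fold, and RLE scaling gave 126 higher. The cause of these shifts was not tested.

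With the replicate block, 4395 genes were called, 4727 without library 3, and 133 and 294 for the interaction. Same-numbered libraries did not deviate together (correlations -0.03, 0.04 and -0.00). The labels give no pairing, and correlations over so few libraries cannot exclude a shared origin. Shares of rare RNA classes rest on few counts, and the number of libraries limits every p-value.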
